A study of Homo sapiens with 8 samples.

Results

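Tumour self-seeded cells were compared with primary tumour cells across all genes with enough counts, using the 3 libraries titled TSC and the 3 libraries titled PC of a series with 8 libraries. The samples were chosen by title, and the remaining 2 libraries, of circulating tumour cells, took no part in the comparison. The deposited table lists 39533 genes, 17553 of them at 0 in all 6 libraries, and 13231 passed the filter on low counts and were tested.

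The series asks how the RNA of tumour cells that returned to their tumour of origin differs from that of the other cells of that tumour. Every sample is HCT116, an established human colorectal cancer line, taken from a model of tumour self-seeding. TSC (n = 3) and PC (n = 3) are both labelled as primary tumour tissue and carry no treatment, genotype or time in the labels. The host animal, the way TSC were told apart from PC, and any pooling are not stated in the sources used here, and the series title names liver cancer while the labels name a colorectal line.

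Tumour self-seeding is the re-entry of circulating tumour cells into an established tumour. Tumour cells sense double-stranded RNA and interferon through receptors, kinases and transcription factors, which switch on interferon-stimulated genes that act against viruses. Growth factor, TGF-β, BMP, Notch and hypoxia signals each induce their own short-lived response genes, several of which encode inhibitors of the same signal.

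Total counts ranged from 10864761 to 19264595 in PC and from 4578869 (TSC replicate 1) to 14717833 in TSC. A count of 0 allowed up to 0.156 CPM in the deepest library and up to 0.664 CPM in TSC replicate 1, with 3 counts as the floor and counting error alone covered. CPM are counts scaled to the same total in each library, with TMM factors, and are not divided by gene length. TSC replicate 1 stood apart from the other 5 libraries. Its score on the leading principal component (51.9% of the variance) was 94.25, against −36.72 to 3.059 in the others. It had 14920 genes with a count where the others had 17008 to 18300. On that component TSC replicate 2 was at −15.16, near the PC libraries (−36.72 to −19.46). Spearman correlations between TSC and PC libraries (0.9411 to 0.9773) overlapped those within TSC (0.9563 to 0.9796). Those within PC were 0.98 to 0.9885. The epithelial markers EPCAM (401 to 604 CPM of the library total), KRT8 (3100 to 4800) and CDH1 (125 to 213) were present in all 6 libraries, as was the intestinal transcription factor gene CDX2 (24.4 to 29.4), while the intestinal markers VIL1 and CDH17 were at most at 0.355 and 0.415. Nothing in the labels says that replicates came from separate animals or cultures, and each p-value therefore rests on the spread among these libraries, which could be technical. In bulk RNA, fewer cells with a transcript and less transcript per cell cannot be told apart.

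Of the 13231 tested genes, 128 differed between TSC and PC at an adjusted p under 0.05 (0.967%, quasi-likelihood test of edgeR, Benjamini-Hochberg adjustment, used for every adjusted p below). In TSC, 47 genes were higher (0.355%) and 81 were lower (0.612%). An unadjusted p under 0.05 was reached by 1643 genes. The smallest called change was 1.69-fold, and 105 of the 128 changed at least 2-fold, 38 upwards and 67 downwards. For all 128 the 3 TSC values lay on one side of the 3 PC values. Such a separation was common among tested genes, at 2548 of 13231 (19.3%), 1148 with TSC above (8.68%) and 1400 with TSC below (10.6%). The median log2 fold change over all tested genes was −0.0011. Split into 3 equal parts by average level, 0.454% of the tested genes with the lowest levels were called, 1.07% of the middle part and 1.38% of the highest.

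**Figure D1:**
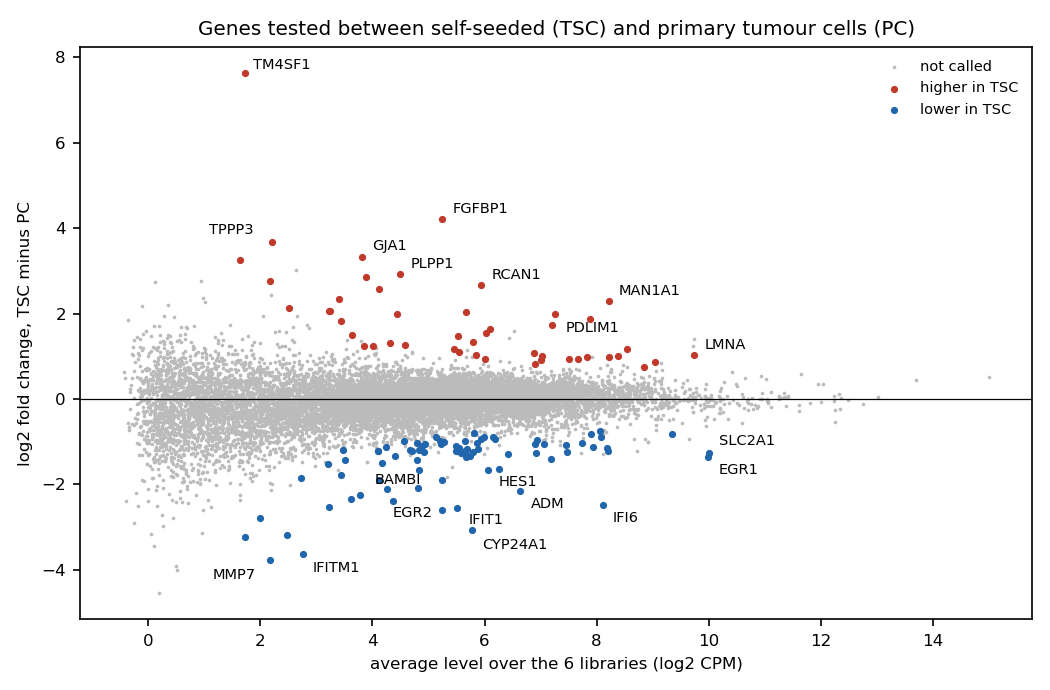
Each point is 1 of the 13231 tested genes, with its average level over the 6 libraries (log2 CPM) on the x axis and its log2 fold change of TSC minus PC on the y axis. Red marks the 47 genes called higher in TSC, blue the 81 called lower and grey the genes not called. The fitted change of TM4SF1, at the top, rests on 1 count in PC and is no measure of its fold.

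The calls depended on which libraries entered. In 6 further fits that each left out 1 library, 28 of the 128 genes were called every time, 19 higher and 9 lower in TSC, and the other 100 were called in 1 to 5 of the 6. Without PC replicate 1, 2 or 3, 44, 32 and 47 genes were called, and without TSC replicate 3, 49. Without TSC replicate 2 there were 390, and without TSC replicate 1, the library that stood apart, 167, among them 127 of the 128. For a named gene, the text says whether it was called in all 6 of these fits or gives the libraries without which it was not called.

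Interferon effectors are proteins that act on viruses and infected cells. Of 42 listed genes 33 were tested and 2 had no count in any of the 6 libraries. Among the 33, 9 were lower (27.3%, against 0.612% of all tested genes), 0 were higher and 24 were not called. Negative fold changes were found for 32 of these 33. The median of the list was −0.98, or −0.78 after thinning to the shallowest library. All 3 TSC values were below all 3 PC values for 23 members, as they were for 10.6% of all tested genes. Measured from the PC mean on the log2 scale, the median member was at −1.18, −0.79 and −0.84 in TSC replicates 1, 2 and 3 and between −0.15 and 0.15 in the PC libraries. Without TSC replicate 1, 10 members were called lower, and without PC replicate 1, PC replicate 2 or TSC replicate 3, 3, 2 and 2.

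Promoter windows of 250 bases before to 50 bases after each RefSeq transcription start (GRCh38.p14, the same assembly as hg38) were searched on both strands for GAAA followed by any 2 bases and another GAAA, the core of the interferon-stimulated response element, which interferon-activated factors bind. The stretches before the start of 5 called effectors are printed because they hold this motif, in capitals. Capitals reading TTTC are the same motif on the opposite strand. All are written 5′ to 3′ on the strand of the gene.
IFIT1 (chr10:89392487-89392549, plus strand): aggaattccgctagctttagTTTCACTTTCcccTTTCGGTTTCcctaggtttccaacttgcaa
IFI6 (chr1:27672256-27672368, minus strand): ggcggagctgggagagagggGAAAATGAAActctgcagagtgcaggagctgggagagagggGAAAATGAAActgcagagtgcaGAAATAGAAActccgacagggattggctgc
BST2 (chr19:17405725-17405780, minus strand): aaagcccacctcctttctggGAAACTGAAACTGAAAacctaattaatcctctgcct
ISG15 (chr1:1013364-1013419, plus strand): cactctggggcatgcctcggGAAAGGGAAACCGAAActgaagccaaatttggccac
IFITM1 (chr11:313980-314029, plus strand): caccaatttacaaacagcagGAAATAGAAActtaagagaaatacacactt
In BST2 and ISG15 2 matches overlap, so that 1 run of capitals holds both. Of the 8 called effectors with a window, 6 held the motif. It was found in 12 of 105 windows of genes called lower (11.4%), 1 of 62 windows of genes called higher (1.61%) and 413 of 14865 windows of all tested genes (2.78%). Windows were found for 101 of the 128 called genes, and windows of 1 gene can overlap. A match describes the letters and is no evidence of binding.

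IFIT1, which binds viral RNA that lacks a host cap (chromosome 10, 89392623 to 89406487), was at 80.9, 94.5 and 54.6 CPM in PC and 12.4, 13.3 and 13.5 CPM in TSC, each in the order of replicates 1 to 3. The TSC libraries were close to each other, and the PC libraries were more widely spread and all far above them. The fall was 5.83-fold (log2 fold change −2.54 ± 0.22 SE, adjusted p = 0.00026), and IFIT1 was called in all 6 fits that left out 1 library. IFI6, an interferon-induced membrane protein (chromosome 1, 27666064 to 27672192), was at 423, 575 and 406 CPM in PC and 72.4, 115 and 62.9 CPM in TSC. It fell 5.59-fold (−2.48 ± 0.24 SE, adjusted p = 0.000619). IFIT1 and IFI6 were the 2 effectors called whichever library was left out.

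BST2, the tether that holds budding virions to the cell, was at 32.9, 44.9 and 25.2 CPM in PC and 3.98, 11 and 3.76 CPM in TSC. TSC replicate 2 was the highest of the TSC libraries and stayed below every PC library. The change was −2.38 ± 0.39 SE (adjusted p = 0.0145), and BST2 was not called without PC replicates 1 or 2 or TSC replicate 3, where the adjusted p reached 0.106. IFITM1, which blocks viral entry, was nearly undetected in TSC, at 0, 1.73 and 0.627 CPM, against 9.67, 15.4 and 10.4 CPM in PC (−3.62 ± 0.58 SE, adjusted p = 0.0141). It was not called without PC replicates 1 or 2 or TSC replicate 3, where the adjusted p reached 0.112. IFITM1 has close paralogs whose reads the counting could share. ISG15, a ubiquitin-like modifier, was at 353, 378 and 277 CPM in PC and 146, 168 and 147 CPM in TSC (−1.13 ± 0.17 SE, adjusted p = 0.00878), and was not called without PC replicates 1 or 2 or TSC replicate 3, where the adjusted p reached 0.0871.

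LAMP3, a lysosomal membrane protein, was at 19.5, 18.3 and 11.5 CPM in PC and 3.98, 4.22 and 5.83 CPM in TSC (−1.79 ± 0.30 SE, adjusted p = 0.0154). PARP9, an ADP-ribosyltransferase that works with the ubiquitin ligase DTX3L, was at 73, 85.7 and 74.2 CPM in PC and 26.1, 36.4 and 34.8 CPM in TSC (−1.25 ± 0.18 SE, adjusted p = 0.00665). The nuclear body proteins SP100 and SP110 complete the 9, with log2 fold changes of −1.17 ± 0.19 SE (adjusted p = 0.0145) and −1.18 ± 0.24 SE (adjusted p = 0.0443). LAMP3 was not called without PC replicates 1 or 2 or TSC replicate 3, where the adjusted p reached 0.129, PARP9 was not called without PC replicate 2 or TSC replicate 3, where the adjusted p reached 0.0662, SP100 was not called without PC replicates 1, 2 or 3 or TSC replicate 3, where the adjusted p reached 0.112 and SP110 was not called without PC replicates 1, 2 or 3 or TSC replicate 3, where the adjusted p reached 0.221. Among members that missed the threshold, IFIT3 was at 18.6, 18.6 and 9.33 CPM in PC and 3.1, 6.44 and 4.48 CPM in TSC (−1.67 ± 0.36 SE, adjusted p = 0.0531) and the guanosine triphosphatase MX2 at 1.67, 3.01 and 1.93 CPM in PC and 0, 0.208 and 0.0896 CPM in TSC (adjusted p = 0.0524). PARP10, an ADP-ribosyltransferase outside the list, fell from 6.84, 13.6 and 7.82 CPM in PC to 0, 1.39 and 1.25 CPM in TSC (adjusted p = 0.028), and was not called without PC replicates 1, 2 or 3 or TSC replicate 3, where the adjusted p reached 0.189.

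Sensors of double-stranded RNA and the signalling proteins behind them fell in part. Of 22 tested members of this list 6 were lower (27.3%, against 0.612% of all tested genes), 0 were higher and 16 were not called. Their median log2 fold change was −0.37, or −0.54 without TSC replicate 2, with 15 negative values. RIGI, the receptor that recognises RNA ends in the cytoplasm and is listed as DDX58 in the table (chromosome 9, 32455302 to 32526196), was at 70.3, 69.3 and 61 CPM in PC and 29.4, 29.4 and 25.4 CPM in TSC. The libraries of each group were close together and the groups well apart (−1.25 ± 0.16 SE, adjusted p = 0.00412, called in all 6 fits). OAS1, which makes the messenger that activates RNase L, was at 24.4, 31.3 and 24.9 CPM in PC and 7.97, 9.01 and 4.84 CPM in TSC (−1.89 ± 0.27 SE, adjusted p = 0.00665), and its paralog OAS3 was at 272, 298 and 287 CPM in PC and 112, 164 and 142 CPM in TSC (−1.03 ± 0.17 SE, adjusted p = 0.0148). OAS1 was not called without PC replicate 2, where the adjusted p was 0.056, and OAS3 was not called without PC replicates 1, 2 or 3 or TSC replicate 3, where the adjusted p reached 0.112.

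The RNA sensor IFIH1 fell by 1.06 on the log2 scale (adjusted p = 0.0365), and EIF2AK2, the kinase PKR that halts translation, by 0.75 (adjusted p = 0.0379), the smallest change among the genes called lower. IFIH1 and EIF2AK2 were each not called without any single PC library or without TSC replicate 3 (adjusted p up to 0.221 and 0.242). The receptor subunits IFNAR1 (log2 fold change −0.32, adjusted p = 0.439) and IFNAR2 (−0.34, adjusted p = 0.671) were not called. Without PC replicate 1, 2 or 3, or without TSC replicate 3, 2, 1, 2 and 2 members of this list were called lower, and without TSC replicate 1 all 6. Antigen presentation genes, which interferon also induces, were not called (0 of 9 tested, median −0.11, or 0.1 without PC replicate 2, unadjusted p under 0.05 for 1, and 0 by DESeq2 and by limma-voom).

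**Figure D2:**
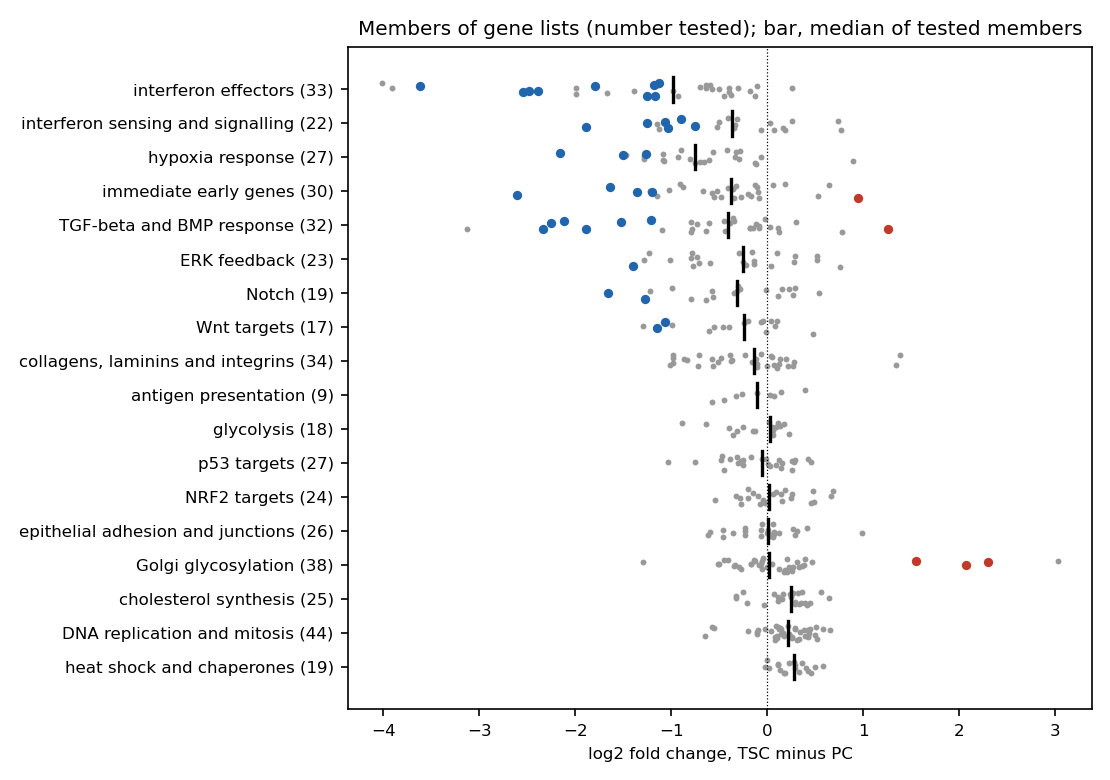
Log2 fold changes of TSC minus PC (x axis) for the tested members of 18 gene lists (rows, with the number tested in brackets). Red and blue points are members called higher and lower in TSC, grey points are not called, and the black bar is the median. Called members of the interferon, hypoxia, Notch and Wnt lists all lie to the left of 0, and those of the Golgi glycosylation list to the right.

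The TGF-β and BMP list holds ligands, receptors and targets, among them feedback inhibitors. Of 32 tested members 6 were lower (18.8%, against 0.612% of all tested genes), 1 was higher and 25 were not called. Their median was −0.41, with 26 negative values. BAMBI, a pseudoreceptor that blocks TGF-β and BMP receptors (chromosome 10, 28677521 to 28682932), was at 51, 63.1 and 61.9 CPM in PC and 14.6, 14.3 and 18.5 CPM in TSC. The groups were far apart and narrow (58.7 ± 6.65 against 15.8 ± 2.31 CPM, mean and SD), and the log2 fold change was −1.89 ± 0.19 SE (adjusted p = 0.00065), called in all 6 fits. The inhibitory SMADs, which shut the receptors off, fell too. SMAD6 was at 22.9, 23.7 and 19.9 CPM in PC and 1.33, 5.82 and 5.83 CPM in TSC (−2.25 ± 0.37 SE, adjusted p = 0.0148), and SMAD7 was at 23.7, 31.8 and 36 CPM in PC and 2.88, 8.17 and 9.05 CPM in TSC (−2.11 ± 0.33 SE, adjusted p = 0.0126). In both genes TSC replicate 1 was the lowest library, and TSC replicates 2 and 3 were still below every PC library.

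PMEPA1, a TGF-β target that withholds SMADs from the receptor, was at 12.8, 16.7 and 29.6 CPM in PC and 1.11, 5.06 and 4.75 CPM in TSC (−2.33 ± 0.44 SE, adjusted p = 0.0301). ID2, a BMP target that inhibits helix-loop-helix factors, was at 70.4, 71.6 and 67 CPM in PC and 24.4, 39.6 and 25.6 CPM in TSC (−1.21 ± 0.20 SE, adjusted p = 0.0154). The ligand gene TGFB2 was at 15.4, 12.8 and 11.3 CPM in PC and 5.76, 4.71 and 3.5 CPM in TSC (−1.52 ± 0.30 SE, adjusted p = 0.0344). TGFBR3, the co-receptor that presents the ligand, moved the other way and was at 10.3, 7.67 and 10.5 CPM in PC and 29, 21.3 and 18.6 CPM in TSC (1.25 ± 0.25 SE, adjusted p = 0.0364). Apart from BAMBI, each of these genes was lost without 1 or more libraries: SMAD7 was not called without PC replicates 2 or 3 or TSC replicate 3, where the adjusted p reached 0.0723, and SMAD6, PMEPA1, ID2, TGFB2 and TGFBR3 were not called without any single PC library or without TSC replicate 3 (adjusted p up to 0.0921, 0.16, 0.131, 0.211 and 0.214). Without PC replicate 1, 2 or 3, or without TSC replicate 3, 2, 1, 1 and 1 members were called lower, and without TSC replicate 1 all 6. The receptors TGFBR1 (0.11, adjusted p = 0.829) and TGFBR2 (−0.44, adjusted p = 0.348) missed the threshold.

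Immediate early genes are switched on within minutes by growth factors and stress. Of 30 tested members 4 were lower (13.3%, against 0.612% of all tested genes), 1 was higher and 25 were not called. Their median log2 fold change was −0.38, with 25 negative values. EGR2, a zinc finger transcription factor (chromosome 10, 62811996 to 62819167), was at 43.3, 72.7 and 78 CPM in PC and 5.09, 11.6 and 13.9 CPM in TSC. It fell 6.09-fold (−2.61 ± 0.32 SE, adjusted p = 0.00309) and was called in all 6 fits. Under another of the alternative settings its adjusted p reached 0.135, and it was not called there. EGR1, its paralog, was at 1132, 1555 and 1711 CPM in PC and 391.9, 690.5 and 638 CPM in TSC (−1.35 ± 0.22 SE, adjusted p = 0.0148). FOSB, a partner in AP-1 dimers, was at 279.8, 505 and 450.3 CPM in PC and 168, 175 and 192 CPM in TSC (−1.21 ± 0.21 SE, adjusted p = 0.0175). The matricellular protein gene CCN1 was at 89, 136 and 119.7 CPM in PC and 23.2, 40.4 and 46.2 CPM in TSC (−1.63 ± 0.25 SE, adjusted p = 0.0109).

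In all 4 the lowest PC library was replicate 1, and the groups did not overlap. EGR1 was not called without PC replicates 2 or 3 or TSC replicate 3, where the adjusted p reached 0.0943, FOSB was not called without PC replicates 2 or 3 or TSC replicate 3, where the adjusted p reached 0.127 and CCN1 was not called without PC replicate 2, where the adjusted p was 0.0723. RHOB, a small GTPase of endosomes, was the member that rose, from 137, 141 and 140.4 CPM in PC to 272, 299 and 237 CPM in TSC (0.95 ± 0.15 SE, adjusted p = 0.0138). RHOB was not called without PC replicates 1, 2 or 3, where the adjusted p reached 0.106. FOS (−1.23, adjusted p = 0.0646) and JUNB (−0.90, adjusted p = 0.0551) were not called, at 445, 691 and 642 CPM in PC and 144, 309 and 306 CPM in TSC for FOS. In single libraries the median member was at −0.9, −0.11 and −0.41 in TSC replicates 1 to 3 and at −0.24, 0.1 and 0.12 in PC replicates 1 to 3, so that TSC replicate 2 lay between PC libraries. Without TSC replicate 2, 12 members were called lower, and without PC replicate 2, PC replicate 3 or TSC replicate 3, 1, 2 and 2.

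Of 23 tested genes induced by the kinase ERK, 1 was lower (4.35%, against 0.612% of all tested genes) and 0 were higher. Their median was −0.25. DUSP6, the phosphatase that inactivates ERK, was at 172, 220.5 and 239 CPM in PC and 76.4, 61 and 102 CPM in TSC (−1.40 ± 0.21 SE, adjusted p = 0.0109), and was not called without PC replicates 2 or 3, where the adjusted p reached 0.0723. ETV1 (−1.01, adjusted p = 0.057) and DUSP1 (−0.79, adjusted p = 0.0929) had negative values and were not called.

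Hypoxia response genes had negative fold changes for 26 of 27 tested members, with a median of −0.75. Of the 27, 3 were called lower (11.1%, against 0.612% of all tested genes), 0 higher and 24 not called. ADM, which encodes the vasodilator peptide adrenomedullin (chromosome 11, 10305073 to 10307397), was at 121, 152 and 214 CPM in PC and 20.1, 47.5 and 39.9 CPM in TSC. It fell 4.46-fold (−2.16 ± 0.30 SE, adjusted p = 0.00585) and was not called without TSC replicate 3, where the adjusted p was 0.0614. SLC2A1, the glucose transporter GLUT1, was at 1073, 1353 and 1918 CPM in PC and 513, 589 and 707 CPM in TSC (−1.26 ± 0.21 SE, adjusted p = 0.0154). PC replicate 3 was the highest library for both genes. ANKRD37, an ankyrin repeat protein gene that HIF-1 induces, was at 23.6, 26.4 and 28.9 CPM in PC and 5.98, 9.49 and 11.7 CPM in TSC (−1.51 ± 0.25 SE, adjusted p = 0.0154).

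SLC2A1 was not called without PC replicates 2 or 3 or TSC replicate 3, where the adjusted p reached 0.0841, and ANKRD37 was not called without PC replicates 1, 2 or 3, where the adjusted p reached 0.0921. The list's median member was at −1.15, −0.62 and −0.68 in TSC replicates 1 to 3 and at −0.22, −0.1 and 0.34 in PC replicates 1 to 3. Without TSC replicate 1, 4 members were called lower, without TSC replicate 2, 8, and without PC replicate 2 or 3, 1 and 1. PFKFB4, a regulator of glycolysis, was at 80.8, 76.7 and 112 CPM in PC and 22.6, 31.3 and 55.2 CPM in TSC (−1.29, adjusted p = 0.0638) and was not called. Genes of glycolysis itself were not called (0 of 18 tested, median 0.03, or −0.08 without TSC replicate 1, unadjusted p under 0.05 for 3, and 1 lower by DESeq2 and by limma-voom). The core of the hypoxia response element, ACGTG, lies in the ANKRD37 promoter, shown here with its matches in capitals, where CACGTG holds a match on each strand.
ANKRD37 (chr4:185396659-185396722, plus strand): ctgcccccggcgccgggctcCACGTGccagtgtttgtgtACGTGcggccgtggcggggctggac
This short motif was found in 25.3% of the 14865 windows, in 26.7% of those of genes called lower and in 14.5% of those of genes called higher, and the windows of ADM and SLC2A1 held none.

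**Figure D3:**
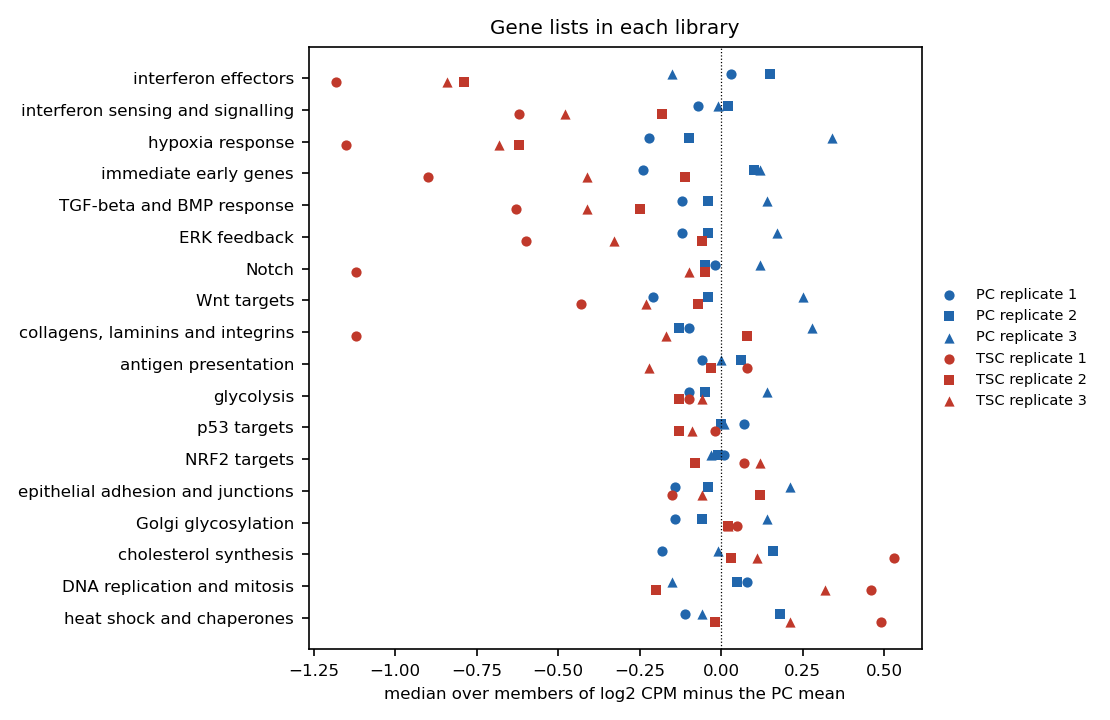
For each gene list (rows), the median over tested members of log2 CPM minus the PC mean is shown for each of the 6 libraries (x axis). Circles, squares and triangles are replicates 1, 2 and 3, in blue for PC and red for TSC. The 3 TSC libraries lie below the 3 PC libraries for the interferon, hypoxia and TGF-β lists, and TSC replicate 1 is the lowest library in each of these.

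Among Notch genes 2 of 19 tested members were lower (10.5%, against 0.612% of all tested genes) and 0 were higher. Their median was −0.31. HES1, the repressor that Notch induces (chromosome 3, 194136148 to 194138732), was at 99.1, 102 and 100.5 CPM in PC and 28.3, 34.4 and 32.6 CPM in TSC. Both groups were narrow, and no TSC library came near the PC libraries (−1.66 ± 0.16 SE, adjusted p = 0.000564, called in all 6 fits). JAG1, which encodes a Notch ligand, was at 169, 157 and 188 CPM in PC and 63.5, 59.9 and 88.9 CPM in TSC (−1.27 ± 0.19 SE, adjusted p = 0.00859), and was not called without PC replicate 1, where the adjusted p was 0.0528. The receptors NOTCH1 (−0.58, adjusted p = 0.529) and NOTCH2 (0.11, adjusted p = 0.857) were not called. Of 17 tested Wnt targets 2 were lower (11.8%, against 0.612% of all tested genes), and both encode Wnt inhibitors. The secreted antagonist gene DKK1 was at 389, 439.6 and 381 CPM in PC and 216, 144 and 184 CPM in TSC (−1.15 ± 0.18 SE, adjusted p = 0.0109). DKK1 was not called without PC replicates 1 or 2 or TSC replicate 3, where the adjusted p reached 0.0921. RNF43, a ligase that removes Wnt receptors, was at 39.7, 51.3 and 58.3 CPM in PC and 20.1, 25.5 and 25.4 CPM in TSC (−1.06 ± 0.20 SE, adjusted p = 0.028). RNF43 was not called without PC replicates 1, 2 or 3 or TSC replicate 3, where the adjusted p reached 0.153. AXIN2, another target, was not called (0.08, adjusted p = 0.917). EFNB2, a membrane-bound ephrin, was the called member among 13 ephrin and Eph receptor genes, at 208, 256 and 282 CPM in PC and 94.1, 101 and 119 CPM in TSC (−1.25 ± 0.17 SE, adjusted p = 0.00585). EFNB2 was not called without PC replicate 2, where the adjusted p was 0.0534.

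CYP24A1, the enzyme that degrades active vitamin D (chromosome 20, 54143538 to 54173986), was at 123, 84.6 and 85 CPM in PC and 4.65, 15.2 and 13.2 CPM in TSC. All TSC libraries were far below the PC libraries, and TSC replicate 1 was the lowest. The gene was 8.43-fold lower in TSC (−3.08 ± 0.33 SE, adjusted p = 0.00109), and was called in all 6 fits. The vitamin D receptor gene VDR, which induces it, was at 24.3, 21.3 and 30.1 CPM in PC and 21.7, 31.4 and 29.6 CPM in TSC and was not called (adjusted p = 0.83). MMP7, the secreted protease matrilysin, was at 9.67, 6.94 and 6.57 CPM in PC and 1.33, 0.346 and 0.358 CPM in TSC, 13.7-fold lower (−3.78 ± 0.56 SE, adjusted p = 0.00885). MMP7 was not called without PC replicate 1 or TSC replicate 3, where the adjusted p reached 0.0772. OSBPL10, a lipid-binding protein gene, fell from 103, 116 and 141 CPM in PC to 50.9, 41.8 and 54.7 CPM in TSC (−1.29 ± 0.18 SE, adjusted p = 0.0066, called in all 6 fits). SUSD2, a membrane protein gene, was at 17, 13.2 and 15.1 CPM in PC and 4.43, 1.18 and 2.87 CPM in TSC (adjusted p = 0.0145). SUSD2 was not called without PC replicates 1, 2 or 3 or TSC replicate 3, where the adjusted p reached 0.0924.

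Among the genes that rose, TM4SF1, a membrane protein related to tetraspanins (chromosome 3, 149369022 to 149377649), was nearly absent from PC. It had 1 count over the 3 PC libraries and 195 over the 3 TSC libraries, at 7.31, 4.02 and 9.32 CPM in TSC. The ratio of pooled rates was 267, with an exact 95% interval from 47.3 to 10600 that covers counting error only (adjusted p = 0.00167, called in all 6 fits). FGFBP1, which releases fibroblast growth factors from the matrix (chromosome 4, 15935577 to 15938740), was at 3.25, 3.2 and 5 CPM in PC and 91.9, 77.3 and 48 CPM in TSC. Every TSC library was far above every PC library, and the rise was 18.5-fold (4.21 ± 0.29 SE, adjusted p = 0.000134). It was called in all 6 fits, as were TPPP3, GJA1, PLPP1, RCAN1, CPA4, SLC16A6 and GDA.

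TPPP3, a tubulin-binding protein, was at 0.334, 1.19 and 0.573 CPM in PC and 11.1, 8.45 and 7.08 CPM in TSC (3.67 ± 0.51 SE, adjusted p = 0.00585). GJA1, the gap junction protein connexin 43 (chromosome 6, 121435646 to 121449727), was at 1.58, 3.47 and 2.66 CPM in PC and 40.7, 25.3 and 13.2 CPM in TSC (3.34 ± 0.42 SE, adjusted p = 0.00362), with TSC replicate 1 the highest. It was the called gene among 9 tested connexins and pannexins. PLPP1, a membrane phosphatase of lipid phosphates (chromosome 5, 55424854 to 55534964), was at 4.09, 6.21 and 5.52 CPM in PC and 43.4, 40.4 and 36.9 CPM in TSC (2.93 ± 0.22 SE, adjusted p = 0.000155). RCAN1, an inhibitor of the phosphatase calcineurin (chromosome 21, 34516442 to 34615113), was at 15.6, 14.5 and 20 CPM in PC and 96.1, 132 and 91 CPM in TSC (2.67 ± 0.21 SE, adjusted p = 0.000155), and calcineurin's catalytic subunit gene PPP3CA was not called (−0.23, adjusted p = 0.55). CPA4, a secreted carboxypeptidase, was at 5.25, 3.93 and 5.73 CPM in PC and 41.8, 25.9 and 23 CPM in TSC (2.58 ± 0.28 SE, adjusted p = 0.00153). SLC16A6, a monocarboxylate transporter family gene, was at 3.42, 3.65 and 3.8 CPM in PC and 12.8, 17.4 and 15.2 CPM in TSC (adjusted p = 0.00418), and the guanine deaminase gene GDA was at 14.4, 21.5 and 23.9 CPM in PC and 113, 73 and 62.5 CPM in TSC (adjusted p = 0.00339). LCN2, the iron-siderophore binding lipocalin, was uneven in TSC, at 3.83, 3.29 and 3.49 CPM in PC and 11.1, 51.6 and 13.3 CPM in TSC (2.87 ± 0.52 SE, adjusted p = 0.0234). LCN2 was not called without PC replicates 1, 2 or 3 or TSC replicate 3, where the adjusted p reached 0.148.

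**Figure D4:**
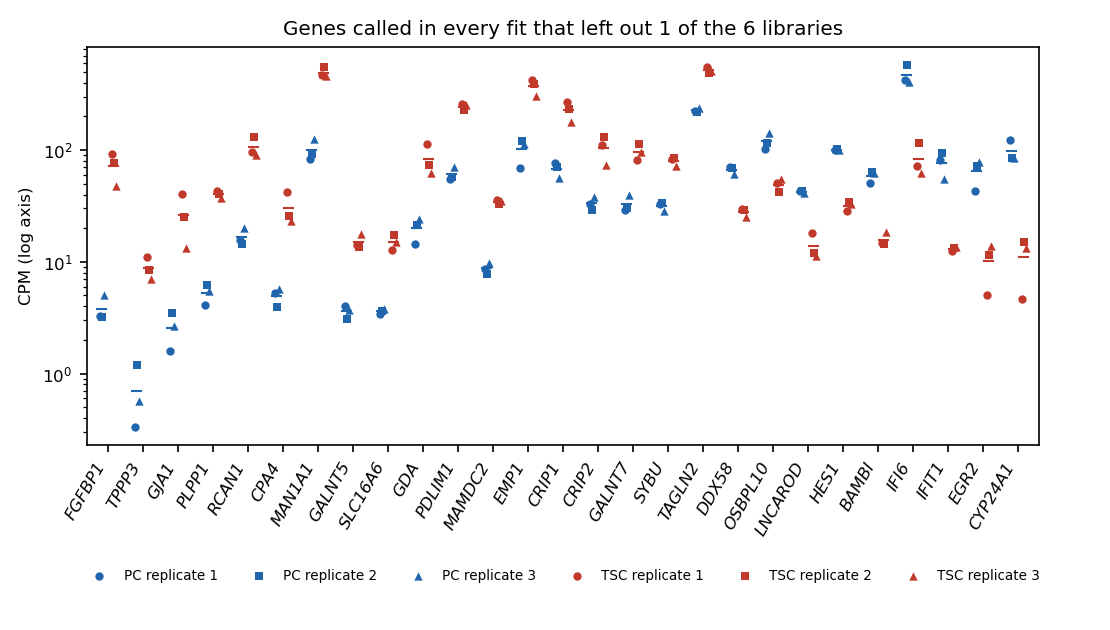
CPM in each library (y axis, log scale) for 27 of the 28 genes called in all 6 fits that left out 1 library. Circles, squares and triangles are replicates 1, 2 and 3, blue for PC and red for TSC, and bars mark group means. TM4SF1 is left out because 2 PC libraries were at 0, and for each gene drawn the 2 groups do not overlap.

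Of 38 tested enzymes that build and trim glycans in the Golgi, 3 were higher (7.89%, against 0.355% of all tested genes) and 0 lower. The list's median was 0.02. MAN1A1, a mannosidase that trims N-glycans (chromosome 6, 119177205 to 119350605), was at 83.5, 92.1 and 126 CPM in PC and 470.5, 553 and 457 CPM in TSC, 4.91-fold higher in TSC (2.30 ± 0.19 SE, adjusted p = 0.00017). GALNT5 and GALNT7 add N-acetylgalactosamine to proteins in mucin-type O-glycosylation. GALNT5 was at 4, 3.1 and 3.7 CPM in PC and 14.2, 13.7 and 17.8 CPM in TSC (2.07 ± 0.28 SE, adjusted p = 0.00474) and GALNT7 at 29, 30 and 40 CPM in PC and 81, 113 and 95.5 CPM in TSC (1.55 ± 0.19 SE, adjusted p = 0.00318). These 3 were called in all 6 fits. Their paralogs MAN1A2 (0.17, adjusted p = 0.691) and GALNT1 (0.12, adjusted p = 0.813) were not called. GCNT3, which branches O-glycans, was at 1.33, 0.913 and 1.61 CPM in PC and 3.98, 22.6 and 4.84 CPM in TSC and missed the threshold (adjusted p = 0.0524).

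Of 20 tested genes of the cytoskeleton and tubulin binding list 1 was higher, TPPP3, 1 was lower and 18 were not called. The latter was MAP2, a microtubule-associated protein, at 13.4, 15.2 and 16.5 CPM in PC and 6.2, 5.96 and 7.44 CPM in TSC (−1.20 ± 0.25 SE, adjusted p = 0.0469), not called without PC replicates 1, 2 or 3 or TSC replicates 2 or 3, where the adjusted p reached 0.231. Outside that list, ADD3, which caps actin filaments, and UTRN, which links actin to the membrane, fell by 1.10 and 1.05 on the log2 scale (adjusted p = 0.0136 and 0.0455), both picked after their values were seen. ADD3 was not called without PC replicates 2 or 3 or TSC replicate 3, where the adjusted p reached 0.103. UTRN was not called without PC replicates 1, 2 or 3 or TSC replicate 3, where the adjusted p reached 0.234. Also outside it, PDLIM1, an adaptor of actin bundles, was at 54.6, 57.9 and 70.4 CPM in PC and 257, 227 and 251 CPM in TSC (2.00 ± 0.17 SE, adjusted p = 0.00017). TAGLN2, an actin-binding protein, was at 221, 221 and 238 CPM in PC and 553, 488 and 505 CPM in TSC (1.18 ± 0.14 SE, adjusted p = 0.00276). The LIM proteins CRIP1 and CRIP2, neighbours on chromosome 14 with similar sequences, rose by 1.74 and 1.64 on the log2 scale (adjusted p = 0.00167 and 0.00477). EMP1, an epithelial membrane protein, was at 69.7, 122 and 114 CPM in PC and 422, 388 and 303 CPM in TSC (1.87 ± 0.22 SE, adjusted p = 0.00276), the MAM domain gene MAMDC2 at 8.67, 7.76 and 9.74 CPM in PC and 35.4, 33.2 and 35.2 CPM in TSC (adjusted p = 0.00065) and SYBU, a kinesin adaptor gene, at 32.8, 33.8 and 28.5 CPM in PC and 82.8, 84.7 and 71.9 CPM in TSC (adjusted p = 0.00276). PDLIM1, TAGLN2, CRIP1, CRIP2, EMP1, MAMDC2 and SYBU were called in all 6 fits. Under another of the alternative settings the adjusted p of CRIP1 reached 0.0753, and CRIP1 was not called there. Among the called genes with the highest counts, LMNA, the gene of lamins A and C, was at 544, 531 and 609 CPM in PC and 1089, 1369 and 984 CPM in TSC (1.03 ± 0.16 SE, adjusted p = 0.0118). LMNA was not called without PC replicates 1 or 2, where the adjusted p reached 0.106. CAV1, the coat protein of caveolae, was at 356, 379 and 383 CPM in PC and 839, 597 and 616 CPM in TSC (adjusted p = 0.0301), CRABP2, a retinoic acid carrier, at 239, 230 and 195 CPM in PC and 509.7, 360 and 460 CPM in TSC (adjusted p = 0.0167) and COTL1, an actin-binding protein, at 341, 319 and 366 CPM in PC and 593, 518 and 619.6 CPM in TSC (adjusted p = 0.0344). These last 3 were not called without any single PC library or without TSC replicate 3 (adjusted p up to 0.185, 0.112 and 0.266).

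Of the stem cell markers listed, 2 of 12 tested were higher (16.7%, against 0.355% of all tested genes). The tetraspanin gene CD9 was at 212, 211 and 179 CPM in PC and 460.5, 389 and 335 CPM in TSC (0.98 ± 0.17 SE, adjusted p = 0.0156). CD9 was not called without PC replicates 1, 2 or 3, where the adjusted p reached 0.106. ALDH1A3, a retinaldehyde dehydrogenase, was at 25.5, 31.1 and 32.5 CPM in PC and 53.6, 79.9 and 56.2 CPM in TSC (1.09 ± 0.20 SE, adjusted p = 0.0234). ALDH1A3 was not called without PC replicates 1, 2 or 3 or TSC replicate 3, where the adjusted p reached 0.184. CD44 (0.48, adjusted p = 0.223) and EPCAM (0.27, adjusted p = 0.519) were not called. Of 14 tested keratins 1 was higher, 1 was lower and 12 were not called, with a median of −0.12. Over all tested genes 0.355% were higher and 0.612% lower. The 2 called keratins were KRT13, higher (1.5 ± 0.29 SE, adjusted p = 0.034), and KRT7, lower (−1.21 ± 0.25 SE, adjusted p = 0.0447). KRT13 was not called without PC replicates 1, 2 or 3 or TSC replicate 3, where the adjusted p reached 0.191, and KRT7 was not called without PC replicates 1, 2 or 3 or TSC replicates 1 or 3, where the adjusted p reached 0.248. Another 3 called genes were picked after their values were seen. MACC1, a regulator of the MET receptor gene in colon cancer, was at 27, 22.1 and 23.8 CPM in PC and 79, 36.2 and 88.5 CPM in TSC (adjusted p = 0.0328). The chromatin protein gene HMGA2 was at 290.5, 292 and 330.2 CPM in PC and 176, 178 and 163 CPM in TSC (adjusted p = 0.0212), and the neurotrophin gene BDNF was at 66.2, 92 and 66.2 CPM in PC and 35.4, 24.8 and 29.3 CPM in TSC (adjusted p = 0.00975). MACC1 was not called without PC replicates 1, 2 or 3 or TSC replicate 3, where the adjusted p reached 0.198. BDNF was not called without PC replicate 2 or TSC replicate 3, where the adjusted p reached 0.0816, and HMGA2 was not called without PC replicates 1, 2 or 3 or TSC replicate 3, where the adjusted p reached 0.139.

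The motif TGANTCA, bound by AP-1, was searched in the same promoter windows, and 3 stretches are shown because they lie before genes with large rises that were called in all 6 fits. Matches are in capitals.
GJA1 (chr6:121435578-121435624, plus strand): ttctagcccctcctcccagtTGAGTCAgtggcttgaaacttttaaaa
CPA4 (chr7:130293093-130293160, plus strand): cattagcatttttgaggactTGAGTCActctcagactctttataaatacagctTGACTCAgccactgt
RCAN1 (chr21:34526912-34526958, minus strand): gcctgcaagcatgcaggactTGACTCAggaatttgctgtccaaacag
The GJA1 match starts 48 bases before the transcription start and the RCAN1 match 116 bases before one of several starts. The motif lay in 11 of 62 windows of genes called higher (17.7%), in 8 of 105 windows of genes called lower (7.62%) and in 771 of 14865 windows of all tested genes (5.19%). Counted by gene, it lay in 8 of 36 called higher, 8 of 65 called lower and 706 of 10190 tested, and 1 gene can have several windows with a match. The other genes called higher with a match before the start were LCN2, EMP1, TAGLN2, SGMS2 and PALM2AKAP2.

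Many programmes showed no called member. With 0.967% of all 13231 tested genes called, 0 calls in a list of 9 to 44 members is no result about that list. Of 44 tested genes of DNA replication and mitosis edgeR called 0 (median 0.22, unadjusted p under 0.05 for 4), and likewise of 25 genes of cholesterol synthesis (median 0.25, 4), 19 chaperones (median 0.28, 3), 26 genes of epithelial adhesion (median 0.01, 3), 27 p53 targets (median −0.05, 3), 24 NRF2 targets (median 0.02, 5) and 9 mediators named in work on self-seeding (median 0.13, 4). In the order given, 36, 20, 18, 14, 12, 12 and 5 tested members had positive fold changes, against 6600 of all 13231 tested genes. In the same order, DESeq2 called 0, 0, 0, 0, 1, 1 and 0 members of these lists and limma-voom 1, 0, 0, 0, 1, 0 and 2. The median of the mediators was −0.79 with a stricter filter and −0.82 after thinning to the shallowest library, and their median member was at −1.72 in TSC replicate 1 and at 0.03 and 0.22 in TSC replicates 2 and 3. The median of the p53 targets was 0.01 without PC replicate 1. For replication and mitosis the median member was at 0.46, −0.2 and 0.32 in TSC replicates 1 to 3, on both sides of the PC libraries (−0.15 to 0.08). The proliferation marker MKI67 was at 956, 799 and 895 CPM of the library total in PC and at 182, 1090 and 479 in TSC, and was not called (−0.557 ± 0.444 SE, adjusted p = 0.648). Among the other genes fixed for naming, CDH1, KRT8, KRT18, VIM, CDX2, MYC, EGFR and COL1A1 were not called, with adjusted p from 0.324 for EGFR to 0.979 for CDX2. KRT20 was listed at 0 in all 6 libraries.

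No tested member of the marker lists of other cell types was called by edgeR, with an unadjusted p under 0.05 for CD68 and HBD. LCK, a lymphocyte kinase gene outside these lists and picked after its values were seen, was called higher. It was at 0.334, 0.639 and 0.729 CPM in PC and 4.21, 5.4 and 7.08 CPM in TSC (3.26 ± 0.53 SE, adjusted p = 0.0146). LCK was not called without PC replicates 1, 2 or 3 or TSC replicate 3, where the adjusted p reached 0.111. The globin gene HBD, at 61.5, 54.9 and 50.4 CPM in PC and 84.8, 91.2 and 79.6 CPM in TSC (0.62 ± 0.16 SE, adjusted p = 0.113), was called higher by DESeq2 and limma-voom. With no filter on low counts edgeR called the leukocyte marker CD68 and the fibroblast markers COL1A2 and COL3A1 higher. Summed over 27 leukocyte markers (11 at 0 in all 6 libraries), PC held 24.8 to 30.3 and TSC 38.4 to 53 CPM of the library total, and PTPRC, the gene of CD45, was at 0 in 2 PC and 2 TSC libraries and at most at 0.515 elsewhere. The 14 erythroid markers (7 at 0 in all 6 libraries) summed to 52.8 to 66.4 in PC and 79.8 to 91 in TSC. Nearly all of this sum was HBD, with HBB at most at 0.773. Both sums were higher in every TSC library than in every PC library, and their part in the genes that rose was not tested. Fibroblast and pericyte markers ranged from 42.8 to 83.5 in PC and from 15.7 to 119 in TSC, with COL1A1 at 4.15, 25 and 69.5 in TSC replicates 1 to 3. Endothelial, platelet and hepatocyte sums stayed at or under 7.43, 2.85 and 3.52, PECAM1 was at 0 in all libraries but PC replicate 1 (0.172), and ALB in all but PC replicate 1 (0.601).

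**Figure D5:**
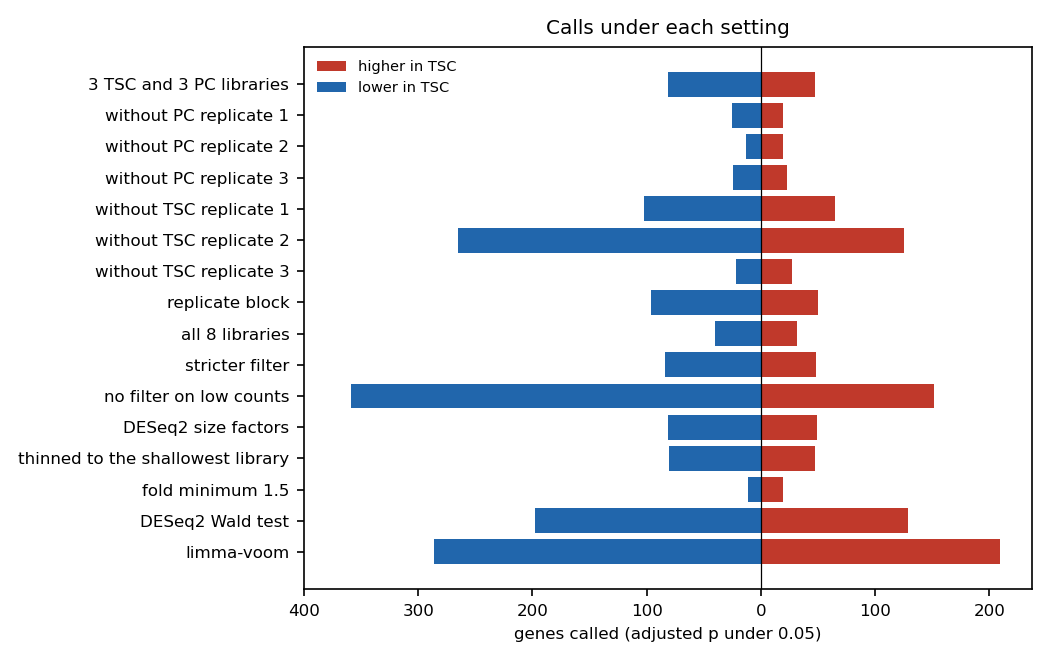
Number of genes called higher in TSC (red, to the right) and lower in TSC (blue, to the left) at an adjusted p under 0.05 in each setting (rows). The top row is the comparison of 3 TSC with 3 PC libraries, with 47 higher and 81 lower. Leaving out any PC library or TSC replicate 3 shortens both bars, and leaving out TSC replicate 2 lengthens both.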

How the data were processed

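RNA was measured in 3 TSC and 3 PC libraries. Total RNA was extracted with a kit for small samples, depleted of ribosomal RNA and, per the labels' protocols, clustered with an Illumina paired-end kit. The deposited values are whole-number counts of reads per gene, not normalized by the authors. The submitters' processing notes list hg38 as build, with STAR 2.5.3a and featureCounts 1.5.3 as tools. Strandedness, annotation, multi-mapped reads and reads of the host are not covered by the sources used here, so values of near-identical genes (CRIP1 and CRIP2, IFITM1, TMSB4X, APOBEC3B) and of antisense genes (TARID) are uncertain.

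The 6 libraries entered a quasi-likelihood fit in edgeR 4.0.16 (R 4.3.3, with filterByExpr, TMM factors, glmQLFit and glmQLFTest), with Benjamini-Hochberg adjustment over 13231 genes and calls at an adjusted p under 0.05. The SE is the log2 fold change divided by the square root of F. In simulated counts drawn from these libraries' means (12943 of 13231 genes tested), changes were placed only in genes with a mean CPM of at least 4. Of these, 60% of genes changed 2-fold and 98% of genes changed 4-fold were recovered. False calls were 17 of 175, a larger share than the threshold of 0.05.

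A total of 49 gene lists are described by counts and medians, with no test of a list. The comparison, the lists, the motifs and the rule for naming genes were chosen with earlier results of these data known. That rule names the 15 largest rises and 15 largest falls among called genes with groups that do not overlap and an average log2 CPM of at least 2, called list members, the 3 members of smallest p in each described list, the 10 called genes of highest mean CPM, genes called in all 6 fits that leave out 1 library, a fixed set of marker genes and called noncoding genes. Some genes that it gives are left out of the text.

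Coordinates are RefSeq's for GRCh38.p14, the assembly named hg38, 1-based; 12738 tested genes matched by symbol and 216 by an older symbol. Alternatives were DESeq2 1.42.0 (Wald test, and size factors alone), limma 3.58.1 (voom), other filters, all 8 libraries, a replicate block, thinning to the shallowest library, a fold minimum of 1.5 and each library left out. No 2 libraries agreed within sampling noise by a chi-square over genes.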

Additional observations from a re-analysis of the deposited data

How the results depend on the processing

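No called gene changed sign under any alternative, but the number of calls moved. Against 128 calls (47 higher, 81 lower), the Wald test of DESeq2 gave 327 (129 and 198), limma-voom 495 (209 and 286) and no filter on low counts 511 (152 and 359), and each included the 128. A fit with all 8 libraries gave 72, with 32 higher and 40 lower, and a fold minimum of 1.5 gave 30 (19 and 11), all among the 128. DESeq2 size factors (130), a stricter filter (132) and thinning to the shallowest library (127) stayed within 1.5 times. Leaving out 1 library gave from 32 (without PC replicate 2) to 390 calls (without TSC replicate 2), 19 to 125 of them higher and 13 to 265 lower. The share of lower calls thus ran from 36.7% with a fold minimum of 1.5, and 40.6% without PC replicate 2, to 70.3% with no filter, against 63.3%.

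Members called lower, in the order DESeq2, limma-voom, no filter and fold minimum of 1.5, were 17, 16, 19 and 3 for interferon effectors (9 in the comparison reported), 8, 9, 14 and 1 for hypoxia genes (3), and 9, 9, 10 and 1 for immediate early genes (4). With all 8 libraries hypoxia and immediate early genes had 1 and 2. Leaving out 1 library gave 2 to 12 for interferon effectors, 1 to 8 for hypoxia genes and 1 to 12 for immediate early genes. Counts for interferon sensing, TGF-β and ERK genes were added as results after their calls had been seen. In the TGF-β and BMP list, 6 members were called lower, against 10 with limma-voom or no filter, 2 with all 8 libraries and 1 with a fold minimum of 1.5.

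The labels do not say whether same-numbered TSC and PC libraries are paired. Deviations from the group means of same-numbered libraries correlated at 0.0343, −0.159 and 0.122, and those of differently numbered libraries at −0.191 to 0.195. With 3 libraries a group, these correlations cannot decide whether the samples are paired. A fit with the replicate block gave 146 calls (50 higher, 96 lower), 117 of them among the 128, with 9 hypoxia and 7 immediate early genes lower. Depth limits genes near the floor of 0.664 CPM in TSC replicate 1. With 3 libraries a group, and 60% of simulated 2-fold changes recovered, a gene that was not called may still differ.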

Other observations

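Of 772 tested long noncoding RNAs 4 were lower in TSC and 0 higher (median log2 fold change −0.12), against 46 higher and 77 lower of 11685 protein-coding genes (median 0.01). The share of long noncoding RNAs called lower was near that of all tested genes (0.612% lower, 0.355% higher). LNCAROD, an RNA transcribed from the region downstream of DKK1 on chromosome 10 (52450877 to 52470533), was at 43, 42.9 and 41.4 CPM in PC and 17.9, 12.1 and 11.3 CPM in TSC and was called in all 6 fits that left out 1 library (−1.65 ± 0.21 SE, adjusted p = 0.00365). DKK1, on the same chromosome at 52314281 to 52317657, was also lower. LINC00673 was at 29.1, 27.1 and 32.5 CPM in PC and 13.9, 10.3 and 11.2 CPM in TSC (−1.34 ± 0.21 SE, adjusted p = 0.0117), MIR100HG at 74.7, 71.8 and 66.1 CPM in PC and 37.9, 39.5 and 44.9 CPM in TSC (−0.79 ± 0.16 SE, adjusted p = 0.0365) and TARID at 5.17, 6.76 and 6.98 CPM in PC and 0.886, 1.18 and 0.627 CPM in TSC (−2.78 ± 0.46 SE, adjusted p = 0.0148). Each of LINC00673, MIR100HG and TARID was not called without PC replicates 1, 2 or 3 or TSC replicate 3, where the adjusted p reached 0.0816, 0.234 and 0.103. The mitochondrial isoleucine transfer RNA gene TRNI was the single noncoding gene that rose, at 7.59, 10.2 and 7.92 CPM in PC and 22.8, 22.1 and 16 CPM in TSC (1.24 ± 0.24 SE, adjusted p = 0.0364), and was not called without the same 4 libraries, where the adjusted p reached 0.211.

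The median log2 fold change by nuclear chromosome ran from −0.077 for chromosome 19 to 0.042 for chromosomes 2 and 16. Measured from the PC mean, the median chromosome 19 gene was at −0.303, 0.049 and −0.012 in TSC replicates 1 to 3. In PC replicates 1 to 3 it was at −0.019, −0.052 and 0.079. Over the 18 tested mitochondrial genes the median log2 fold change was 0.332, but the groups overlapped. The median mitochondrial gene was at 0.449, 0.601 and −0.3 in TSC replicates 1 to 3. In PC replicates 1 to 3 it was at 0.134, 0.165 and −0.266.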
